A study of Homo sapiens with 24 samples.

Results

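The NF-kB genes described here are the 10 genes NFKB1, NFKB2, RELB, NFKBIA, NFKBIZ, BCL3, TNFAIP2, TNFAIP3, BIRC3 and ICAM1, taken by gene symbol with every array probe that carries it. They comprise 3 subunit genes, 3 genes of IkB and IkB-like proteins, and 4 feedback and target genes. BIRC3 has no probe under its symbol in the array annotation used and was not analysed here, so 9 genes were measured, all of them among the 14077 genes tested. Their levels were read on Illumina beadchips in 4 established lines of head and neck squamous carcinoma, each with erlotinib-sensitive and erlotinib-resistant cells, to ask which members differed with resistance and whether the lines differed alike.

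NF-kB is a family of dimeric transcription factors built from Rel-domain subunits. IkB proteins hold the dimers in the cytoplasm until the IkB kinase complex marks them for degradation, and the freed dimers then bind kappa-B sites at their target genes. Among those targets are IkB alpha and the ubiquitin-editing enzyme A20, which switch the pathway off again, and in squamous carcinoma cells NF-kB is known for inducing cytokines, adhesion molecules and survival genes.

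SCC-25 and Cal-27 are carcinomas of the tongue, FaDu is one of the pharynx and SQ20B one of the larynx. The 8 groups, sensitive and resistant cells of each line, had 3 arrays each. Every culture, sensitive or resistant, received the vehicle, 0.01% DMSO, for 48 h before RNA was harvested. Resistant cells were maintained in medium with erlotinib, which blocks the kinase activity of EGFR, the receptor for epidermal growth factor; the dose, and whether the drug was present during the 48 h, are not given in the sources used here. SCC-25 was grown in a medium with hydrocortisone, a glucocorticoid, and the media listed for the other lines do not name it. No label describes more than 1 resistant derivative per line, and nothing says that the arrays of a group came from separate cultures, so the p-values measure the spread between arrays, which may be technical. SCC-25 and Cal-27 share a table of 12 arrays, and FaDu and SQ20B share another, so levels are compared only within a table. A level is a background-corrected, quantile-normalised log2 intensity. A change is the resistant mean minus the sensitive mean of those levels, ± its standard error from limma (n = 3 against 3), and a gene was called when its limma p was under 0.05 once adjusted for the 19171 probes tested (Benjamini-Hochberg). A gene with several probes is counted by its brightest.

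Between 39.5% and 45.0% of the probes were detected on an array, and the number of arrays limits the precision. The brightest probe of each member was detected on every array, except that of NFKB2 on 1 resistant SCC-25 array and that of RELB on 1 sensitive SQ20B array. All 6 squamous epithelial markers with a probe (CDH1, DSG3, EPCAM, KRT14, KRT5, SFN) were detected on every array of SCC-25, Cal-27 and FaDu, and 5 of them in SQ20B, where KRT14 was not detected. With resistance, 5 of these 6 markers were called lower in SCC-25 and 4 of 6 in both Cal-27 and FaDu, by limma. In SQ20B 2 of 6 were called lower, and 1 of them rose in FaDu and 1 in SQ20B. The share of all genes called lower was 25.4% for SQ20B, 19.8% for FaDu, 16.8% for Cal-27 and 15% for SCC-25. For so short a list the SQ20B count is near its share. The markers' median change was -0.11 for SQ20B, -0.62 for FaDu, -0.50 for SCC-25 and -1.25 for Cal-27. KRT14 changed by -6.24 in Cal-27 and -2.37 in FaDu, KRT5 by -1.63 in SQ20B, and SFN by -1.06 in SCC-25. The leukocyte marker CD3E was detected on no array; PTPRC was detected on no array outside resistant SCC-25. The summed signal of the 7 leukocyte markers ran from 3575 to 4179 in sensitive and from 3584 to 3895 in resistant SCC-25, from 1806 to 1949 and 1750 to 1967 in Cal-27, from 1690 to 2228 and 1336 to 1751 in FaDu, and from 1086 to 1195 and 1232 to 1389 in SQ20B. Within that list CD14, detected on every array, changed by 0.97 in SCC-25, 0.33 in Cal-27 and -0.72 in FaDu, and CSF1R was called lower in resistant Cal-27 and higher in resistant SQ20B (limma adjusted p from 3.36e-05 to 0.0376). No resistant Cal-27 and no sensitive SQ20B array detected CSF1R, and the differences were at least 1.27-fold and 1.22-fold. CD68 changed by -0.37 in Cal-27 (limma adjusted p = 0.0198). ITGAM was detected on all 3 resistant Cal-27 arrays and LYZ on all 3 resistant SQ20B arrays. The 6 fibroblast markers summed to between 1448 and 1667 in sensitive and between 6660 and 8494 in resistant SCC-25, where COL3A1, LUM and DCN rose, COL1A2 fell and PDGFRB was not detected. They summed to between 592 and 652 in sensitive and between 1314 and 1420 in resistant SQ20B. There only LUM (at least 24.2-fold) and COL3A1 (at least 1.35-fold) were called, both higher, and PDGFRB was not detected (limma adjusted p = 1.4e-12 and 3.08e-05). In Cal-27, 1 of the 6 was called higher (PDGFRB, not detected on the sensitive arrays) and 3 were called lower. Of these 3, COL1A2 was detected on every Cal-27 array and changed by -0.63. The DCN probe counted was detected on no Cal-27 array, and LUM on only 1, a sensitive one. The 6 endothelial markers summed to between 716 and 754 in sensitive and between 1601 and 1699 in resistant Cal-27, with CDH5 higher (3.56) and CLDN5, KDR, PECAM1 and VWF not detected. In FaDu they summed to between 720 and 761 in sensitive and between 850 and 1013 in resistant cells, where CDH5 rose by 2.55 and VWF changed by -1.04 (limma adjusted p = 3.33e-08 and 3e-05). The part of these markers in the members' changes was not tested.

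Short promoter sequences are shown for the members that were called in the same direction in at least 3 lines (NFKBIZ, TNFAIP2, ICAM1) and for NFKBIA, the inhibitor that moved in opposite directions in different lines. Each is the 250 bases before an annotated start of the gene, read 5′ to 3′ on the gene's strand from RefSeq for GRCh38.p14. Capitals mark every match to GGNNNTTCC, the core of a kappa-B site, searched on both strands with overlapping matches kept. They lie at chr19:10270870-10271119 (plus strand) for ICAM1, chr14:35404750-35404999 (minus strand) for NFKBIA, chr3:101827740-101827989 and chr3:101849264-101849513 (plus strand) for the 2 starts of NFKBIZ, and chr14:103123211-103123460 (plus strand) for TNFAIP2.
ICAM1: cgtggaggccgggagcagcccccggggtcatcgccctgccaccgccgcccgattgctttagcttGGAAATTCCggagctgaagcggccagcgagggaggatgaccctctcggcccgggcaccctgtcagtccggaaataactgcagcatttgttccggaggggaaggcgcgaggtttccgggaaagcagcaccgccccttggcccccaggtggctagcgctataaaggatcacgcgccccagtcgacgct
NFKBIA: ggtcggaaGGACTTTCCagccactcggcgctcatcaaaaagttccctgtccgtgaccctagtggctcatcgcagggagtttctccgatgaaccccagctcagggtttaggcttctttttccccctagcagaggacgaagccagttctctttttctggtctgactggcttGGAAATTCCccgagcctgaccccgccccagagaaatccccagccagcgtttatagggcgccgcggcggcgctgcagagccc
NFKBIZ, upstream start: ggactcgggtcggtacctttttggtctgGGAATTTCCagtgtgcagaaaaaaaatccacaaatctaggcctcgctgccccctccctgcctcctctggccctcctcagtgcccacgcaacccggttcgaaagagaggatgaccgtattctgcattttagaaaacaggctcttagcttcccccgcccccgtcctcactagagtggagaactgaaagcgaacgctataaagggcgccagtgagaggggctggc
NFKBIZ, downstream start: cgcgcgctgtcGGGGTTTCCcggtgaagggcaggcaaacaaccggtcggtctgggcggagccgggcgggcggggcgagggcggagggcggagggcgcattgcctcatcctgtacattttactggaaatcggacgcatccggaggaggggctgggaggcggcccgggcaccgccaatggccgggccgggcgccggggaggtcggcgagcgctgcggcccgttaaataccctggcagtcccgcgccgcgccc
TNFAIP2: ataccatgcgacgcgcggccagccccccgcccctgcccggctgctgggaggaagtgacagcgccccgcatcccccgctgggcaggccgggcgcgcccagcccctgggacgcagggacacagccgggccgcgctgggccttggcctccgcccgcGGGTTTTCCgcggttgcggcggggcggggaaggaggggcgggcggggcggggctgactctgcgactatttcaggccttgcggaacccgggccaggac
The match in ICAM1 begins 186 bases before the start, and the one in TNFAIP2 begins 97 bases before it. NFKBIA has 2 matches, which begin 242 and 81 bases before its start. NFKBIZ has 1 match before each start, at 222 and 239 bases.

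Across the members in the promoter table, 11 of 13 starts held a match, against 17.1% of the 35116 starts in the table. Counted by gene, 9 of 9 members held a match at some start, against 20.2% of 27305 genes. BIRC3 is among the 9, and RELB has no entry. The members were chosen as genes of the NF-kB pathway, feedback and target genes among them, so these shares are no independent test of the list. NFKB2 had 3 starts, of which the first held no match, the second held 3 (2 of them overlapping, 107 and 106 bases before the start) and the third held 2. TNFAIP3 had 2 matches, 67 and 55 bases before its start, and BCL3 had 1 at 105 bases. A match describes the letters of the window and is not a binding measurement.

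**Figure D1:**
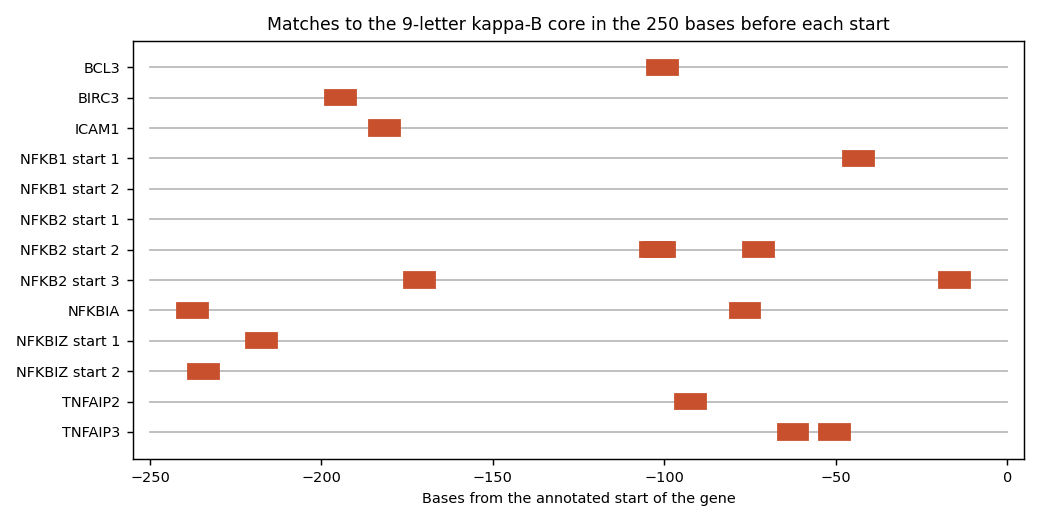
Positions of the GGNNNTTCC matches (blocks) in the 250 bases before each annotated start of the members, drawn as distance in bases from the start. Of the 13 starts, 11 hold at least 1 match.

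With resistance, 8 of the 9 measured members rose in Cal-27 and 6 in FaDu, and 0 fell in either line. In SCC-25 2 rose and 2 fell, and in SQ20B 2 rose and 3 fell (limma, adjusted p under 0.05). In SCC-25 the count of called members fell from 4 to 1 (TNFAIP2) in a fit of its 2 groups alone, to 2 without sensitive replicate 1 and to 1 without sensitive replicate 3. Among all genes tested, 16% rose and 16.8% fell in Cal-27, and 20.2% rose and 19.8% fell in FaDu. The same shares were 14.7% and 15% in SCC-25, and 28.1% and 25.4% in SQ20B. With only 9 members, the counts in these 2 lines are near their shares. The median change of the 9 members was 0.63 in Cal-27, 0.78 in FaDu, 0.19 in SCC-25 and 0.18 in SQ20B on the log2 scale, where the medians of all genes were -0.01, -0.02, 0.00082 and 0.0016. Being RNA from whole cultures, these values cannot tell fewer expressing cells from less RNA per cell. By gene, TNFAIP2 was called higher in 3 lines and lower in the fourth. NFKBIZ and ICAM1 were called higher in 3 lines and lower in none. NFKBIA, NFKB1, RELB and TNFAIP3 were called higher in 2 lines and lower in 1, BCL3 higher in 1, and NFKB2 in none.

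**Figure D2:**
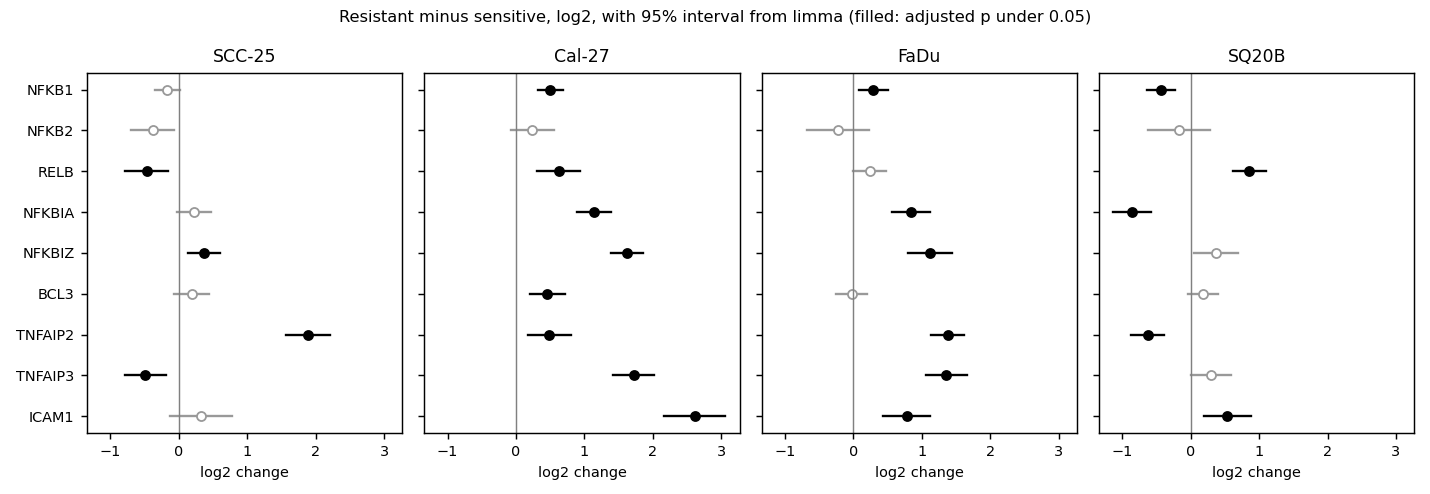
Change with resistance (log2, resistant minus sensitive) of the 9 members in each line, with the 95% interval from limma; filled points have an adjusted p under 0.05. In Cal-27 8 points are filled and all lie above 0, while SCC-25 and SQ20B have filled points on both sides of 0.

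NFKB1 encodes p105, the precursor of the p50 subunit. Its levels in SCC-25 were 11.47, 11.56 and 11.55 on the sensitive arrays and 11.43, 11.32 and 11.33 on the resistant ones. In Cal-27 they were 10.44, 10.61 and 10.68 against 11.10, 11.05 and 11.08. All resistant arrays lay below the sensitive ones in SCC-25 and above them in Cal-27, yet the resistant Cal-27 arrays stayed below every SCC-25 array. The change was 0.50 ± 0.09 in Cal-27 (limma adjusted p = 0.000624) and -0.17 ± 0.09 in SCC-25 (limma adjusted p = 0.178).

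In FaDu, NFKB1 measured 11.15, 11.19 and 11.19 in sensitive cells and 11.45, 11.59 and 11.38 in resistant cells. SQ20B gave 10.60, 10.90 and 10.83 against 10.34, 10.40 and 10.28. The groups did not overlap in either line and moved in opposite directions. The rise in FaDu was 0.29 ± 0.10 (limma adjusted p = 0.0272) and the fall in SQ20B was -0.43 ± 0.10 (limma adjusted p = 0.00178). The FaDu call rested on small margins: with each array's median as the scaling the change was 0.08 (limma adjusted p = 0.674), and it was lost without sensitive replicate 1, 2 or 3 or resistant replicate 2, at adjusted p = 0.075, 0.055, 0.0595 and 0.10.

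NFKB2 encodes p100, the precursor of p52 in the non-canonical branch of the pathway. It was dim in every line, with levels between 4.82 and 5.65 in SCC-25, 5.93 and 6.49 in Cal-27, 5.21 and 5.81 in FaDu, and 5.20 and 6.18 in SQ20B. Its changes were -0.38 ± 0.14, 0.24 ± 0.14, -0.22 ± 0.21 and -0.16 ± 0.21 in that order, and none was called (limma adjusted p = 0.0687, 0.249, 0.45 and 0.556). In SCC-25 the 3 resistant arrays (5.20, 4.82 and 5.36) lay below the 3 sensitive ones (5.47, 5.65 and 5.38), and without resistant replicate 3 the fall became -0.50 (limma adjusted p = 0.0315). Beside this probe, a second NFKB2 probe gave changes of -0.17 ± 0.17, 0.31 ± 0.17, -0.24 ± 0.13 and 0.25 ± 0.13, none of them called, and it differed in sign from the first in SQ20B. The remaining NFKB2 probe was detected on 0 of 24 arrays and was not tested.

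RELB encodes the subunit that pairs with p52. SCC-25 levels were 6.29, 5.93 and 6.19 in sensitive and 5.61, 5.42 and 5.98 in resistant cells. Cal-27 levels were 6.09, 6.31 and 6.06 in sensitive and 6.72, 6.95 and 6.68 in resistant cells. The groups overlapped in SCC-25, where resistant replicate 3 exceeded sensitive replicate 2, and were separate in Cal-27. RELB changed by -0.47 ± 0.15 in SCC-25 (limma adjusted p = 0.029) and rose by 0.63 ± 0.15 in Cal-27 (limma adjusted p = 0.00513). The SCC-25 call was lost in a fit of the 2 SCC-25 groups alone (adjusted p = 0.071) and without sensitive replicate 1 or 3 or resistant replicate 1 or 2, at limma adjusted p = 0.0985, 0.0785, 0.0835 and 0.122.

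FaDu cells had RELB levels of 5.88, 5.74 and 5.88 when sensitive and 6.03, 6.15 and 6.04 when resistant. SQ20B cells had 4.83, 5.12 and 5.16 when sensitive and 6.0, 5.72 and 5.98 when resistant. Resistant SQ20B arrays overlapped the FaDu arrays, from a lower parental level. RELB rose in SQ20B by 0.86 ± 0.11 (limma adjusted p = 2.26e-05), and in FaDu the difference of 0.24 ± 0.11 was not called (limma adjusted p = 0.11), although its resistant arrays all lay above the sensitive ones. The SQ20B value depends on the background correction for this dim probe: it was 0.29 with none and 0.41 with normexp at an offset of 50, and it was called under both.

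NFKBIA encodes IkB alpha, the inhibitor that NF-kB itself induces. In Cal-27 the levels were 11.34, 11.07 and 11.14 in sensitive cells and 12.35, 12.38 and 12.25 in resistant cells. In SCC-25 they were 11.61, 11.71 and 11.85 against 12.18, 11.87 and 11.79. Resistant Cal-27 arrays exceeded every other array of that table, and the SCC-25 groups overlapped. The rise in Cal-27 was 1.14 ± 0.12, or 2.2-fold (limma adjusted p = 7.27e-06), and the SCC-25 difference was 0.22 ± 0.12 (limma adjusted p = 0.177).

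Among FaDu arrays, NFKBIA stood at 11.02, 11.02 and 11.04 in sensitive and 11.58, 11.92 and 12.09 in resistant cells. Among SQ20B arrays it stood at 9.87, 9.76 and 9.60 in sensitive and 9.03, 8.90 and 8.74 in resistant cells. Both pairs of groups were fully separated, upward in FaDu and downward in SQ20B. NFKBIA rose by 0.84 ± 0.13 in FaDu, or 1.79-fold (limma adjusted p = 0.000208), and changed by -0.85 ± 0.13 in SQ20B, 1.81-fold lower (limma adjusted p = 8.5e-05). The starting levels also differed, all 6 SQ20B arrays being below all 6 FaDu arrays.

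NFKBIZ encodes IkB zeta, a nuclear IkB protein that acts as a cofactor at a subset of NF-kB target genes, IL6 among them. Its levels in Cal-27 were 9.42, 9.19 and 9.32 on sensitive and 11.02, 10.95 and 10.82 on resistant arrays. SCC-25 showed 7.45, 7.63 and 7.46 against 7.74, 7.85 and 8.06. Resistant arrays were higher in both lines, but the resistant SCC-25 arrays did not reach even the sensitive Cal-27 arrays. NFKBIZ rose by 1.62 ± 0.11 in Cal-27, or 3.07-fold (limma adjusted p = 1.44e-07), and by 0.37 ± 0.11 in SCC-25, or 1.29-fold (limma adjusted p = 0.0194). The SCC-25 call was lost with median scaling (0.28, adjusted p = 0.117), in the fit of the 2 SCC-25 groups alone (adjusted p = 0.0572), and without sensitive replicate 1 or 3 or resistant replicate 3, at limma adjusted p = 0.0568, 0.0571 and 0.0837.

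For FaDu the NFKBIZ levels were 8.51, 8.70 and 8.32 in sensitive and 9.65, 9.46 and 9.78 in resistant cells. For SQ20B they were 7.42, 7.24 and 7.51 in sensitive and 8.05, 7.74 and 7.50 in resistant cells. Separation was complete in FaDu, and in SQ20B resistant replicate 3 lay within the sensitive range. NFKBIZ rose by 1.12 ± 0.15 in FaDu, or 2.18-fold (limma adjusted p = 6.58e-05). In SQ20B the difference was 0.37 ± 0.15 (limma adjusted p = 0.0524), which crossed the threshold under 6 of the alternatives, for example with median scaling (0.51, adjusted p = 0.00946), and without sensitive FaDu replicate 2 (adjusted p = 0.0492) or resistant SQ20B replicate 3 (adjusted p = 0.0142). A second NFKBIZ probe was detected on 1 of 24 arrays and was not tested.

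BCL3 encodes another nuclear IkB protein, which binds p50 and p52 dimers. Cal-27 levels rose from 8.23, 7.95 and 8.09 to 8.54, 8.67 and 8.43, a change of 0.46 ± 0.12 (limma adjusted p = 0.00899). SCC-25 had 7.64, 8.0 and 7.79 in sensitive and 8.08, 7.86 and 8.05 in resistant cells, and SQ20B had 7.57, 7.64 and 7.45 against 7.83, 7.62 and 7.77. Both pairs overlapped, with differences of 0.19 ± 0.12 and 0.18 ± 0.10 that were not called (limma adjusted p = 0.265 and 0.164). FaDu gave 9.17, 8.94 and 8.83 against 8.96, 8.96 and 8.93, a difference of -0.03 ± 0.10 with a 95% interval from -0.25 to 0.20 (limma adjusted p = 0.873).

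**Figure D3:**
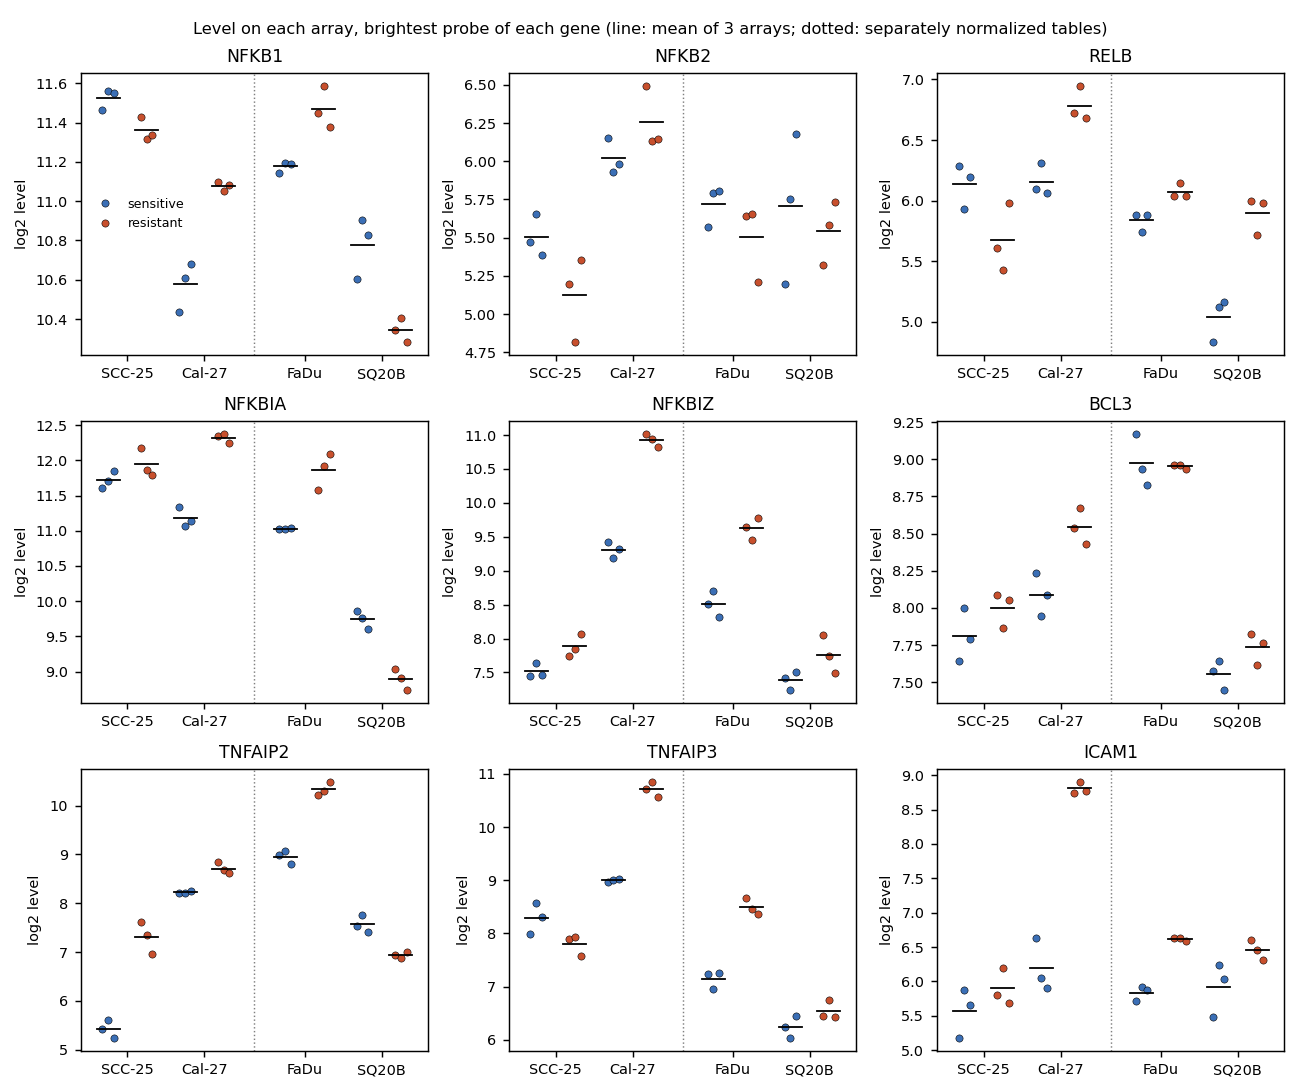
Log2 level of each member's brightest probe on every array, by line and by sensitive or resistant group (3 points a group, with the mean). Each panel has its own axis, and SCC-25 and Cal-27 come from another table than FaDu and SQ20B, so levels are read within a table and a panel; NFKBIA is above its sensitive arrays in FaDu and below them in SQ20B.

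TNFAIP2 encodes a TNF-induced protein that takes part in forming membrane protrusions. In sensitive SCC-25 it measured 5.43, 5.60 and 5.24, and in resistant SCC-25 7.62, 7.35 and 6.96. Cal-27 measured 8.20, 8.21 and 8.25 when sensitive and 8.84, 8.68 and 8.61 when resistant. All resistant arrays exceeded the sensitive ones in both lines, and the resistant SCC-25 arrays stayed below the sensitive Cal-27 arrays. TNFAIP2 rose by 1.89 ± 0.15 in SCC-25, or 3.71-fold (limma adjusted p = 1.31e-06), the largest change of any member in that line. The SCC-25 value was 0.90 without background correction and 1.16 with normexp at an offset of 50, both called. Its rise in Cal-27 was 0.49 ± 0.15 (limma adjusted p = 0.0223), which was lost without sensitive replicate 1 or 2 or resistant replicate 1, at adjusted p = 0.0577, 0.059 and 0.0806.

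FaDu measured 9.0, 9.07 and 8.80 for TNFAIP2 in sensitive cells and 10.21, 10.31 and 10.49 in resistant cells. SQ20B measured 7.53, 7.75 and 7.41 in sensitive cells and 6.93, 6.88 and 7.0 in resistant cells. As for NFKBIA, the arrays separated upward in FaDu and downward in SQ20B. TNFAIP2 rose by 1.38 ± 0.11 in FaDu, or 2.6-fold (limma adjusted p = 1.02e-06), and changed by -0.63 ± 0.11 in SQ20B, 1.54-fold lower (limma adjusted p = 0.000391). Without background correction the SQ20B change was -0.40 and was still called.

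TNFAIP3 encodes A20, which removes and adds ubiquitin chains on signalling proteins upstream of the IkB kinase complex and so restrains NF-kB. Its levels in Cal-27 were 8.96, 9.0 and 9.03 when sensitive and 10.72, 10.85 and 10.57 when resistant. In SCC-25 they were 7.99, 8.56 and 8.30 when sensitive and 7.89, 7.93 and 7.58 when resistant. The groups separated in opposite directions in these 2 lines, though in SCC-25 the nearest arrays were only 7.99 and 7.93. TNFAIP3 rose by 1.72 ± 0.14 in Cal-27, or 3.29-fold (limma adjusted p = 1.04e-06), and changed by -0.49 ± 0.14 in SCC-25, 1.4-fold lower (limma adjusted p = 0.0201). The SCC-25 call was lost in the fit of the 2 SCC-25 groups alone (adjusted p = 0.0661) and without sensitive replicate 2 or 3 or resistant replicate 3, at limma adjusted p = 0.0862, 0.051 and 0.0868.

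FaDu rose in TNFAIP3 from 7.23, 6.95 and 7.25 to 8.67, 8.47 and 8.36, a change of 1.36 ± 0.14, or 2.56-fold (limma adjusted p = 6.58e-06). SQ20B had 6.24, 6.03 and 6.45 in sensitive and 6.45, 6.75 and 6.43 in resistant cells. The SQ20B groups overlapped, and the difference of 0.30 ± 0.14 was not called (limma adjusted p = 0.0825). It was called with median scaling (0.53, adjusted p = 0.00978) and without sensitive replicate 3 (0.41, adjusted p = 0.0337).

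ICAM1 encodes an adhesion molecule on the cell surface that binds leukocyte integrins and is a standard readout of NF-kB activity. Sensitive Cal-27 arrays measured 6.64, 6.05 and 5.90, and resistant ones 8.75, 8.90 and 8.77. SCC-25 arrays measured 5.18, 5.88 and 5.66 when sensitive and 5.81, 6.20 and 5.69 when resistant. Resistant Cal-27 arrays stood above every other array of the table, and the SCC-25 groups overlapped. The rise in Cal-27 was 2.61 ± 0.21, or 6.11-fold (limma adjusted p = 8.02e-07), the largest member change in any line, and it was 1.70 without background correction. In SCC-25 the difference was 0.33 ± 0.21 (limma adjusted p = 0.278).

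ICAM1 in FaDu went from 5.72, 5.92 and 5.88 to 6.64, 6.63 and 6.59, and in SQ20B from 5.49, 6.24 and 6.04 to 6.61, 6.46 and 6.31. Neither pair overlapped, and sensitive SQ20B replicate 1 was the lowest of its group. ICAM1 rose by 0.78 ± 0.16 in FaDu (limma adjusted p = 0.0016) and by 0.54 ± 0.16 in SQ20B (limma adjusted p = 0.0112). These probes were dim, and without background correction the changes were 0.36 and 0.24, both called. Without sensitive SQ20B replicate 1 the SQ20B change was 0.32 (adjusted p = 0.0345).

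Whether 2 lines of a table changed differently was tested directly as an interaction. Between SCC-25 and Cal-27, 8 of the 9 members differed, against 32.6% of all genes, and BCL3 did not (-0.27 ± 0.16, limma adjusted p = 0.254). For 7 of the 8 the change was lower in SCC-25. The difference (SCC-25 minus Cal-27) was -2.28 ± 0.29 for ICAM1, -2.20 ± 0.20 for TNFAIP3 and -1.25 ± 0.15 for NFKBIZ. It was -1.09 ± 0.21 for RELB, -0.91 ± 0.16 for NFKBIA and -0.67 ± 0.12 for NFKB1, with limma adjusted p from 3.69e-06 for TNFAIP3 to 0.00133 for RELB. NFKB2 differed by -0.62 ± 0.20 (limma adjusted p = 0.0359), but its second probe gave -0.48 ± 0.24 (adjusted p = 0.163), and the call was lost in 10 of 21 alternatives, at adjusted p up to 0.0874. TNFAIP2 alone went the other way, by 1.40 ± 0.21 (limma adjusted p = 0.000233). Without background correction the difference was 0.51 for TNFAIP2 and -0.49 for RELB, both called.

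Between FaDu and SQ20B, 6 of the 9 members differed, against 32.3% of all genes. The change was higher in FaDu for TNFAIP2 (2.01 ± 0.16), NFKBIA (1.69 ± 0.18), TNFAIP3 (1.06 ± 0.19), NFKBIZ (0.75 ± 0.21) and NFKB1 (0.73 ± 0.13), with limma adjusted p between 1.19e-06 and 0.015. With median scaling the NFKBIZ difference was 0.53 (adjusted p = 0.0844). RELB was the exception in direction, at -0.62 ± 0.16 (limma adjusted p = 0.00865), and its call was lost without background correction (-0.19, adjusted p = 0.0813) and with normexp at an offset of 50 (-0.28, adjusted p = 0.0526). For ICAM1 the difference was 0.24 ± 0.22, with a 95% interval from -0.24 to 0.72, for BCL3 -0.21 ± 0.15 and for NFKB2 -0.06 ± 0.30, none of them called (limma adjusted p = 0.458, 0.323 and 0.914). Without sensitive SQ20B replicate 1 the ICAM1 difference was 0.46 and was called (limma adjusted p = 0.0418).

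The parental cells themselves differed. Of the 9 members, 7 differed between sensitive Cal-27 and sensitive SCC-25, against 55% of all genes, and 7 differed between sensitive SQ20B and sensitive FaDu, against 54.9%. With only 9 members, both counts are near those shares. Compared with SCC-25, parental Cal-27 had more TNFAIP2 (2.80 ± 0.15), NFKBIZ (1.80 ± 0.11), TNFAIP3 (0.71 ± 0.14), ICAM1 (0.62 ± 0.21) and NFKB2 (0.52 ± 0.14) and less NFKB1 (-0.95 ± 0.09) and NFKBIA (-0.53 ± 0.12), with limma adjusted p between 4.42e-09 and 0.0216. RELB (0.02 ± 0.15) and BCL3 (0.28 ± 0.12) were not called (limma adjusted p = 0.935 and 0.061), though BCL3 was called in 5 of 22 alternatives, with adjusted p down to 0.0214: without background correction, with normexp, with the stricter detection filter, and without sensitive replicate 2 of SCC-25 or of Cal-27. Without background correction the differences were 1.54 for TNFAIP2, 0.25 for ICAM1 and 0.19 for NFKB2, all called. The ICAM1 call was lost without sensitive SCC-25 replicate 1 (0.42, adjusted p = 0.103) or sensitive Cal-27 replicate 1 (0.40, adjusted p = 0.106).

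Parental SQ20B was below parental FaDu for all 7 called members, by -1.42 ± 0.10 for BCL3, -1.39 ± 0.11 for TNFAIP2, -1.29 ± 0.13 for NFKBIA and -1.12 ± 0.15 for NFKBIZ, and further by -0.90 ± 0.14 for TNFAIP3, -0.80 ± 0.11 for RELB and -0.40 ± 0.10 for NFKB1. Their limma adjusted p lay between 9.76e-08 and 0.00323. Without background correction RELB was at -0.27 and TNFAIP3 at -0.49, both called. ICAM1 (0.08 ± 0.16) and NFKB2 (-0.01 ± 0.21) were not called (limma adjusted p = 0.704 and 0.966), while the second NFKB2 probe was called at -0.45 ± 0.13 (limma adjusted p = 0.0108). These contrasts share their sensitive arrays with the resistance changes. Set side by side, NFKBIA, TNFAIP2 and NFKB1 in SQ20B were lower in the parent and fell further. TNFAIP3, NFKBIZ, ICAM1 and TNFAIP2 in Cal-27 were higher in the parent and rose further. A lower parental level and then a rise was seen for NFKB1 (-0.95, then 0.50) and NFKBIA (-0.53, then 1.14) in Cal-27. The same held for RELB (-0.80, then 0.86) in SQ20B.

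**Figure D4:**
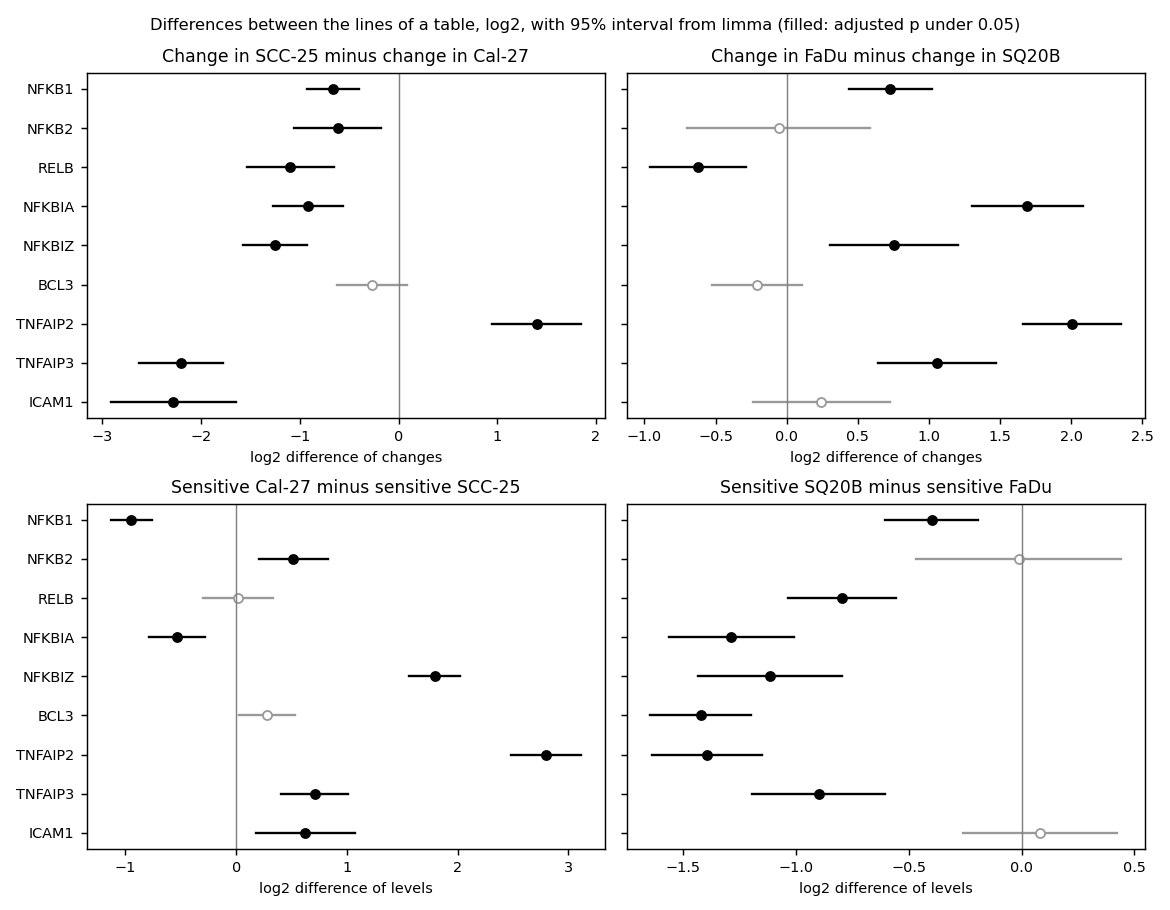
Top: difference of the resistance change between the lines of a table (log2; SCC-25 minus Cal-27 and FaDu minus SQ20B); bottom: difference of the sensitive levels (log2; Cal-27 minus SCC-25 and SQ20B minus FaDu); points are members with the 95% interval from limma, filled where the adjusted p is under 0.05. In the top left panel 7 filled points lie below 0 and TNFAIP2 at 1.40, in the top right 5 lie above 0 and RELB at -0.62, and in the bottom right all 7 filled points lie below 0.

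Other parts of the pathway were read from lists of subunits, kinases, adaptors, ligands, receptors and target genes. Their counts stand beside the shares of all genes already given, which were 14.7% higher and 15% lower in SCC-25, 16% and 16.8% in Cal-27, 20.2% and 19.8% in FaDu, and 28.1% and 25.4% in SQ20B. Of 5 other subunits and IkB proteins, 0 were called in SCC-25 and SQ20B. In Cal-27 1 rose, NFKBIE (IkB epsilon, 1.14 ± 0.12), and 1 fell, RELA (the p65 subunit, -0.68 ± 0.15). In FaDu NFKBIE was the only one called, at -0.44 ± 0.13. Limma adjusted p was 8.16e-06, 0.00322 and 0.0163 for these 3 values. The RELA probe was dim, with mean levels in Cal-27 of 5.58 in resistant and 6.26 in sensitive cells. REL, NFKBIB and NFKBID were called in no line.

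Of 11 kinases and kinase adaptors, 2 rose and 2 fell in SCC-25, 2 and 3 in Cal-27, 3 and 2 in FaDu, and 2 and 4 in SQ20B. For so short a list such counts are near those shares. MAP3K8, the kinase TPL2 that binds p105, rose by 2.08 ± 0.15 in FaDu and was at least 1.49-fold higher in SCC-25, where the sensitive arrays did not detect it (limma adjusted p = 2.65e-07 and 0.00726). It was also called higher in Cal-27 (limma adjusted p = 0.000363), where 1 of 3 sensitive arrays detected it, so the size is not given. An IkB kinase relative, IKBKE, rose by 1.53 ± 0.11 in Cal-27 and 0.56 ± 0.15 in FaDu and changed by -0.61 ± 0.15 in SQ20B (limma adjusted p = 3.79e-07, 0.00854 and 0.0035). MAP3K14, the kinase NIK of the non-canonical branch, changed by -0.82 ± 0.20 in Cal-27 and -1.17 ± 0.23 in SQ20B (limma adjusted p = 0.00625 and 0.000703). IKBKG, the regulatory subunit NEMO, fell in 3 lines, by values from -0.32 to -0.26.

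Of 19 receptor-proximal adaptors and ubiquitin enzymes tested, 1 rose and 5 fell in SCC-25, 5 and 2 in both Cal-27 and FaDu, and 8 and 3 in SQ20B. RBCK1, a subunit of the linear ubiquitin ligase, rose by 1.99 ± 0.08 in SQ20B, 1.10 ± 0.08 in Cal-27 and 0.88 ± 0.08 in FaDu (limma adjusted p = 9.97e-10, 5.48e-07 and 4.2e-06). TRAF3, which promotes the degradation of NIK, changed by -1.08 ± 0.14, -0.52 ± 0.09 and -0.41 ± 0.14 in those lines (limma adjusted p = 2.95e-05, 0.00088 and 0.0376). Its sensitive and resistant arrays overlapped in FaDu. CARD10 fell in SCC-25 (-0.99 ± 0.10), Cal-27 (-1.14 ± 0.10) and SQ20B (-0.89 ± 0.09), with limma adjusted p from 1.45e-06 to 9.74e-06.

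Among 7 activating ligands tested, 1 rose in SCC-25, 3 rose and 1 fell in Cal-27, 3 rose in FaDu, and 2 rose and 1 fell in SQ20B. TNF rose by 3.65 ± 0.13 in Cal-27 (limma adjusted p = 6.85e-10) and was not detected in the other lines. LTB, the lymphotoxin subunit that signals through the LTB receptor, was at least 2.18-fold higher in resistant Cal-27 and at least 2.92-fold higher in resistant FaDu, with sensitive arrays not well above background (limma adjusted p = 4.29e-07 and 3.77e-07). TNFSF12, the ligand TWEAK, was at least 2.4-fold higher in resistant SQ20B (limma adjusted p = 6.99e-07). Of 8 receptors tested, 3 fell in SCC-25, 2 rose and 2 fell in Cal-27, 1 fell in FaDu and 3 rose in SQ20B. TNFRSF12A, the TWEAK receptor, changed by -0.89 ± 0.10 in Cal-27, -0.78 ± 0.10 in SCC-25 and -0.65 ± 0.09 in FaDu, while it rose by 0.46 ± 0.09 in SQ20B (limma adjusted p = 1.5e-05, 7.16e-05, 0.00013 and 0.000991).

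Of 33 other NF-kB target genes tested, 22 rose and 3 fell in Cal-27, 18 and 1 in FaDu, 12 and 4 in SQ20B, and 8 and 5 in SCC-25. Among all genes the shares that rose were 16%, 20.2%, 28.1% and 14.7% in that order. The median changes of the list were 0.86, 0.41, 0.08 and 0.01. The chemokine CCL2 rose by 5.94 ± 0.12 in Cal-27 (limma adjusted p = 6.56e-12) and was not detected in the other lines. CXCL8, interleukin 8, rose by 3.71 ± 0.18 in Cal-27 and 2.28 ± 0.10 in FaDu and changed by -0.92 ± 0.10 in SQ20B (limma adjusted p = 1.29e-08, 3.83e-09 and 5.82e-06). SOD2, the mitochondrial superoxide dismutase, rose by 1.64 ± 0.11 and 0.33 ± 0.10 in Cal-27 and FaDu and changed by -0.95 ± 0.10 in SQ20B (limma adjusted p = 1.35e-07, 0.0209 and 3.73e-06). The signs of SOD2 and CXCL8 in those lines were those of NFKBIA.

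Other targets had other patterns across the lines. IL6 rose in all 4 lines, by 2.74 ± 0.14 in SQ20B, 2.49 ± 0.14 in FaDu, 2.30 ± 0.18 in Cal-27 and 1.24 ± 0.18 in SCC-25 (limma adjusted p from 7.59e-09 to 0.000185). LCN2, lipocalin 2, rose by 2.27 ± 0.12, 5.17 ± 0.12, 2.41 ± 0.20 and 1.19 ± 0.20 in the same order (limma adjusted p from 3.16e-11 to 0.000613). PTGS2, cyclooxygenase 2, rose by 3.14 ± 0.14 in Cal-27 and was at least 4.99-fold higher in resistant SQ20B (limma adjusted p = 6.34e-09 and 2.82e-08). The gelatinase MMP9 was at least 6.33-fold lower in resistant SCC-25 (limma adjusted p = 3.66e-07). NFKBIE, TRAF1, TNIP1 and TNFRSF9 each stand in 2 of these lists.

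**Figure D5:**
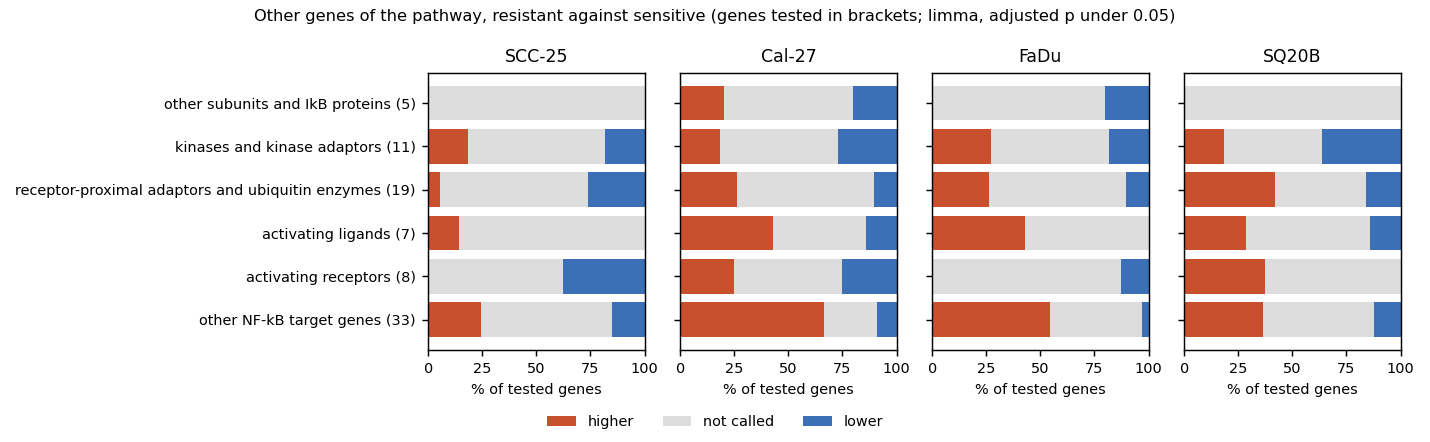
Percentage of the tested genes of each other pathway list that were higher, lower or not called in resistant cells of each line (limma, adjusted p under 0.05; genes tested in brackets). The bar of 33 other target genes is mostly higher in Cal-27 (22 genes) and FaDu (18 genes).

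Across the 12 arrays of a table, the members did not all vary together. NFKBIZ and TNFAIP3 had a Pearson r of 0.95 in SCC-25 and Cal-27 and 0.96 in FaDu and SQ20B. NFKBIA and TNFAIP2 had an r of 0.17 in the first table and 0.98 in the second, and NFKB1 and NFKBIA had 0.50 and 0.97. These values describe 12 arrays in 4 groups that share a scaling, so differences between groups dominate them. Among genes outside the 10, the most similar pattern was the one with the highest value of the smaller r of the 2 tables. By that measure SOD2 was nearest to NFKBIA (0.96 in both tables). HLA-DRA was nearest to both NFKBIZ (0.98 and 0.97) and TNFAIP3 (0.96 in both). ZC3H12A came next for TNFAIP3 (0.97 and 0.95), TCIRG1 was nearest to TNFAIP2 (0.97 and 0.96), and TMEM181 to RELB (0.91 in both). ZNF280D was nearest to NFKB1 (0.97 and 0.93), SLC18B1 to BCL3 (0.94 and 0.98), TMEM41B to ICAM1 (0.94 and 0.90) and COG5 to NFKB2 (0.86 and 0.72).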

How the data were processed

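Per the labels' protocols, biotinylated cRNA from total RNA was read on Illumina arrays. The intensity values deposited by the authors are bead signals on a linear scale, with neither background subtraction nor scaling between arrays, as the values show; each has a detection p-value, also as the authors deposited it. The submitters' processing notes name GenomeStudio, without a version. Processed intensity values from another of the authors' tables, which rank the probes of each array as the bead signals do, served as an alternative.

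Background correction with neqc (offset 16, fitted from detection p-values), quantile normalisation and log2 were done within each table of 12 arrays with limma 3.58.1 in R 4.3.3. Probes with 1 symbol in the platform annotation (30113 of 47231) and a detection p-value under 0.05 on at least 3 of 24 arrays were tested (19171 probes). A gene not detected on any array of a group has only a bound, written "at least". The 4 groups of a table were fitted together with lmFit and eBayes (8 residual degrees of freedom), with Benjamini-Hochberg adjustment over all probes tested. On simulated data a change of 1 on the log2 scale was called for 92% (SCC-25 comparison) and 94% (FaDu comparison) of 50 changed probes, and one of 0.5 for 48% and 44%. A change of -1 was called for 88% and 92%. The simulation changed only 200 of 19171 probes, a far smaller share than was called in these data. Its adjusted threshold was therefore stricter, and these percentages do not give the power of the comparisons.

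The members and lists were chosen with earlier results of these data known. Named genes are all members; of each other list, up to the 3 highest and 3 lowest called changes per line with fully separated arrays; and per member the 2 non-member genes with the most similar pattern, of which the nearest is printed, and both for TNFAIP3. Alternatives changed the background correction, scaling, detection filter, probe rule, groups fitted and arrays used. Same-numbered arrays of a line deviated with correlations of -0.07 to 0.08, so numbers were not treated as pairs.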

Additional observations from a re-analysis of the deposited data

Results flagged for a closer look

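Of the 9 measured members, 8 had a resistance change that differed between SCC-25 and Cal-27 and 6 had one that differed between FaDu and SQ20B, by limma's interaction test with an adjusted p under 0.05. Among all genes tested, 32.6% and 32.3% differed in these tests. As SCC-25 minus Cal-27, the log2 difference was -2.28 for ICAM1, -2.20 for TNFAIP3, -1.25 for NFKBIZ, -1.09 for RELB, -0.91 for NFKBIA, -0.67 for NFKB1, -0.62 for NFKB2, a call lost in 10 of 21 alternatives, and 1.40 for TNFAIP2. As FaDu minus SQ20B, it was 2.01 for TNFAIP2, 1.69 for NFKBIA, 1.06 for TNFAIP3, 0.75 for NFKBIZ, 0.73 for NFKB1 and -0.62 for RELB. NFKBIA, TNFAIP2 and NFKB1 were called with opposite signs in FaDu and SQ20B, the FaDu call of NFKB1 being lost in 5 of 22 alternatives. TNFAIP3 and RELB were called with opposite signs in SCC-25 and Cal-27, and their SCC-25 calls were lost in 4 and 5 of 22 alternatives. Groups of 3 arrays were not tested for single outlying arrays by Dixon's criterion.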

How the results depend on the processing

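The 9 members gave 72 changes or differences and 1566 values under the alternatives, of which 1495 kept direction and side of the threshold, 37 lost a call, 18 gained one and 16 turned direction. In a fit of the 2 SCC-25 groups alone, the SCC-25 count of called members dropped from 4 to 1. With 1 array left out in turn, the count of called members ran from 1 to 4 in SCC-25 (2 without sensitive replicate 1, 1 without sensitive replicate 3), from 7 to 8 in Cal-27, from 5 to 6 in FaDu and from 5 to 6 in SQ20B. It ran from 7 to 8 and from 6 to 7 for the differences between lines, and from 6 to 8 and from 7 to 8 for the parental comparisons. No value that turned direction was called in the main analysis or in the alternative: NFKB2 in SQ20B was 0.048 with median scaling, 0.0435 as the mean of its probes and -0.42 to 0.0705 with arrays left out. NFKB2 between the parents FaDu and SQ20B was 0.0069 without background correction, 0.0059 with normexp at an offset of 50 and -0.25 to 0.24 with arrays left out. RELB between parental SCC-25 and Cal-27 was -0.0113 with median scaling and -0.0855 to 0.0911 with arrays left out. Leaving arrays out also gave -0.102 to 0.0701 for BCL3 in FaDu, -0.29 to 0.20 for the NFKB2 difference between FaDu and SQ20B, and -0.0774 to 0.30 for ICAM1 between the parents FaDu and SQ20B, where it was called without sensitive SQ20B replicate 1 (adjusted p = 0.047). The NFKB2 difference between SCC-25 and Cal-27 lost its call without background correction (-0.22, limma adjusted p = 0.0692), with normexp (-0.31, 0.0525), with the authors' processed values (-0.64, 0.0548), with no detection filter (-0.62, 0.0508) and with 6 of 12 arrays left out in turn, at adjusted p up to 0.0874. The replicate numbers gave no sign of pairing, and a fit with the replicate number as a block called 4, 8, 6 and 5 members in SCC-25, Cal-27, FaDu and SQ20B. The same block gave 8 and 6 for the differences between lines and 7 and 7 for the parental comparisons, each as without it. The cause of these shifts was not tested. Chip position as a block was not run, since the column names carry none. Dim probes (NFKB2, RELB, ICAM1, and TNFAIP2 in SCC-25) limit the size of a change, which shrank when background was left in.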
